A study of Zea mays with 12 samples.

Results

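The change in gene expression between persistent synergid cells 18 h after pollination (pSC18) and synergid cells before pollination (SC, 0 HAP, hours after pollination) was measured in 6 of the 12 RNA-seq libraries of the series, 3 per stage. All genes of the table were considered. Of its 45246 rows, 21143 had enough counts over the 12 libraries to be tested. All cells came from the maize inbred line B73, without transgene or treatment other than pollination, and pSC18 cells came from ovules that had been fertilized. Each library was made from a small pool of manually isolated cells whose cDNA was amplified, and the study describes the 3 libraries of a stage as independent biological replicates. The other 6 libraries hold persistent synergid cells at 12 and 24 HAP (pSC12 and pSC24).

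Synergid cells are the accessory cells beside the egg cell. They secrete small proteins that attract the pollen tube and carry the filiform apparatus, a thickened wall through which the tube enters. One of them, the receptive synergid, breaks down when the tube discharges its sperm cells, and the other, the persistent synergid, survives for some hours after fertilization before it is eliminated by programmed cell death. MYB98 transcription factors drive the secretory programme of synergids in Arabidopsis. RALF peptides, FERONIA-like receptor kinases, their LLG coreceptors and the NADPH oxidases named RBOH form a signalling module at the cell surface, and EIN3-type and EREB transcription factors act in ethylene signalling.

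The pSC18 libraries held 15435736 to 20834163 counts on genes, and the SC libraries 18369408 to 20046467. The 50 most abundant genes of a library took 37.2 to 39.8% of the counts in pSC18 and 43.4 to 44.9% in SC. All 6 markers of the labelled cell, among them the defensin-like ZmES4 and ZmMYB98, were detected in every library, with a summed level of 125027 to 146363 FPKM (fragments scaled by gene length and library size) in pSC18 and 169781 to 202147 FPKM in SC. Replicates differed by more than counting error in every pair. The squared correlation of log2(FPKM + 1) over tested genes was 0.942 between pSC18 replicates 1 and 2, but 0.893 and 0.896 between these and pSC18 replicate 3. The 3 SC pairs lay between 0.951 and 0.954. In pSC18 replicate 3, 148 tested genes with at least 5 FPKM were 10-fold or more above both other replicates, against 1 to 4 genes in each of the other 5 libraries, so results that rest on it are given with and without it.

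At 18 HAP, 572 genes were higher than in SC (2.71% of the tested genes) and 338 were lower (1.60%), with an adjusted p under 0.05 in edgeR's quasi-likelihood test and a fold over 2. The median log2 fold change of all tested genes was 0.05. With no threshold on the fold, 995 genes (4.71%) were higher and 866 (4.10%) lower, 8.80% in either direction. Most changes were moderate: the log2 fold change was over 2 for 188 of the 572 genes and under -2 for 73 of the 338. The 3 libraries of each stage did not overlap for 556 of the genes called higher and for all 338 called lower. Among all tested genes, 14.9% lay above SC and 16.2% below SC without overlap. The balance of the calls depended on the scaling. Scaled by library totals alone, the median log2 fold change of all tested genes was 0.25, 987 genes were called higher and 220 lower, and the share of calls that were higher was 81.8% in place of 62.9%. No called gene turned its direction under that scaling. In such pools, fewer cells of a type and less RNA per cell cannot be told apart.

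**Figure D1:**
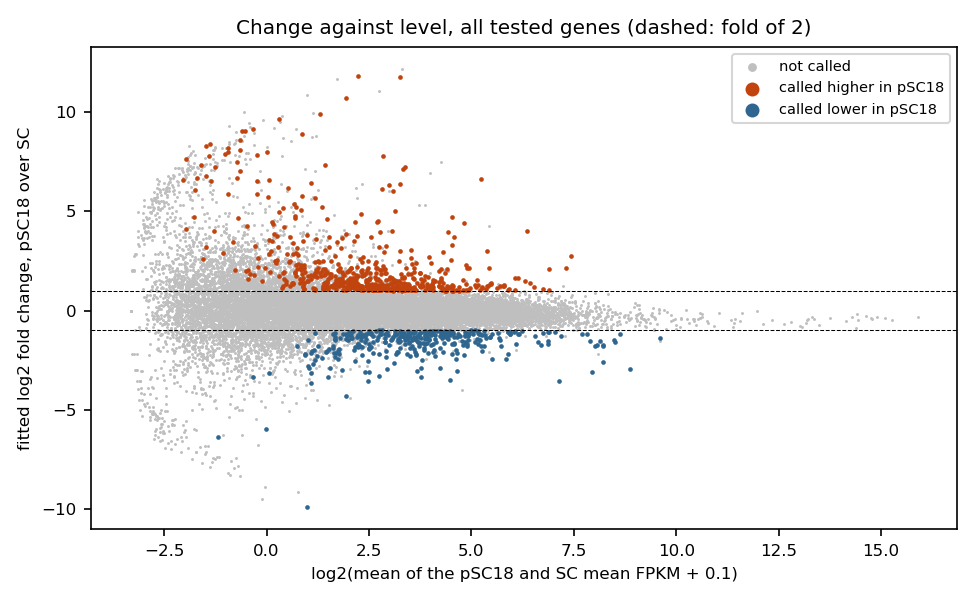
Fitted log2 fold change, pSC18 over SC, against the mean FPKM of both stages on a log2 scale for the 21143 tested genes, with genes called higher in orange and called lower in blue. Calls spread over most levels, while the most abundant genes lay just below 0; the fitted values at the far left and beyond about 5 in size rest on very few counts in one stage and depend on the fit.

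Genes of the surface signalling module were higher at 18 HAP. The study chose this list on these samples, so its direction is not independent evidence. All 6 members had a positive change, and 4 were called higher (66.7%, against 4.30% of all tested genes called in either direction), with a list median log2 fold change of 1.89. ZmRALF12 (Zm00001eb410350, chromosome 10, 24925839 to 24926805 in AGPv5), a secreted peptide ligand, had 11.9, 27.4 and 20.0 FPKM in pSC18, against 2.43, 3.96 and 3.06 FPKM in SC. The stages did not overlap, and its log2 fold change was 2.65 ± 0.31 (SE, adjusted p = 0.000656, edgeR).

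ZmFERL16 (Zm00001eb001810, chromosome 1, 5365242 to 5367385), a receptor kinase of the FERONIA type, had 21.6, 32.0 and 26.8 FPKM in pSC18 and 2.69, 5.85 and 3.99 FPKM in SC. ZmLLG3 (Zm00001eb189180, chromosome 4, 168344785 to 168355517), a coreceptor anchored in the membrane, had 36.0, 42.7 and 37.2 FPKM in pSC18 and 6.54, 6.21 and 6.87 FPKM in SC. Both rose in every library, by 2.68 ± 0.26 and 2.56 ± 0.16 on the log2 scale (SE, adjusted p = 0.000219 and 2.75e-05, edgeR). ZmRBOH3 (Zm00001eb293430), an oxidase that makes superoxide outside the cell, reached 6.61, 7.74 and 6.47 FPKM in pSC18, against 3.76, 2.35 and 2.80 FPKM in SC, a log2 fold change of 1.23 ± 0.22 (SE, adjusted p = 0.00462, edgeR). ZmFERL1 (Zm00001eb015930) and ZmRBOH4 (Zm00001eb197890) had smaller log2 differences of 0.55 and 0.60, both with an adjusted p under 0.05 and a fold below 2. The 4 calls held without pSC18 replicate 3 and under each other library left out.

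**Figure D2:**
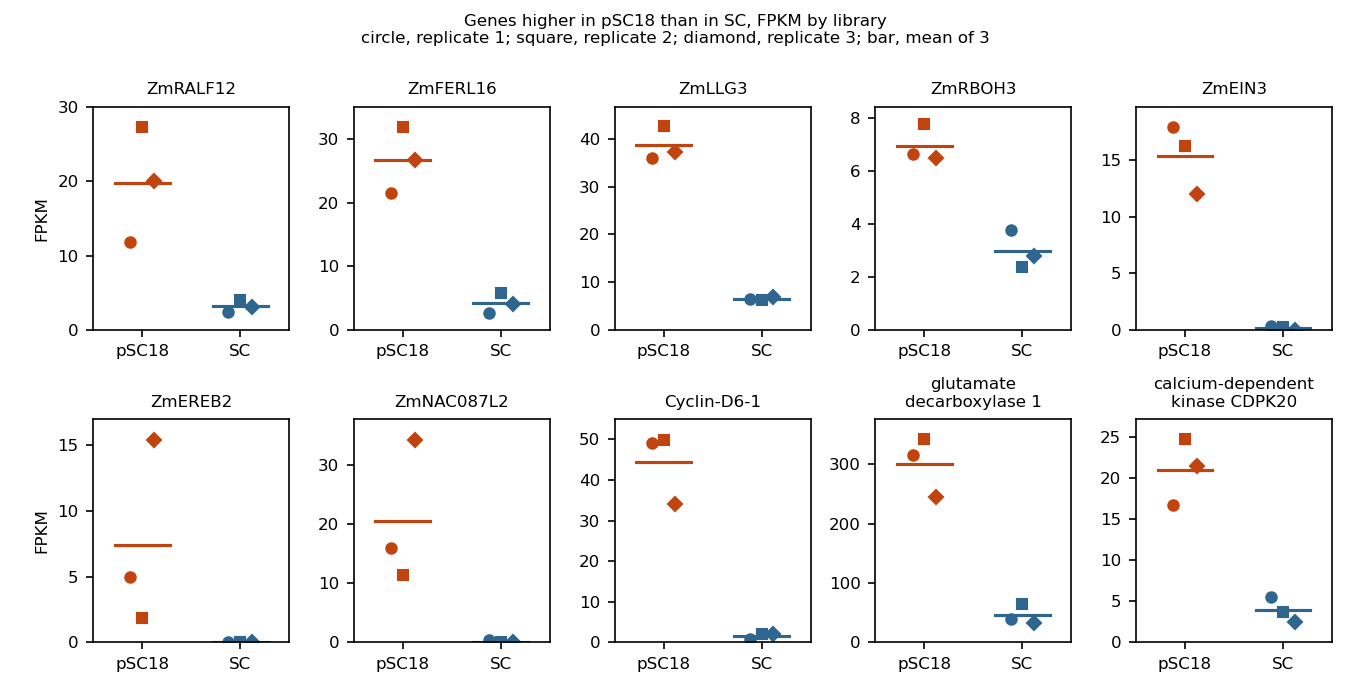
FPKM of 10 genes higher in pSC18 than in SC, each on its own linear axis from 0, with a marker per library and a bar at the mean of the 3. For ZmRALF12, ZmFERL16, ZmLLG3, ZmRBOH3, Cyclin-D6-1, glutamate decarboxylase 1 and calcium-dependent protein kinase 20, every pSC18 library lies above every SC library, and for ZmEREB2 the pSC18 libraries spread from 1.85 to 15.4 FPKM.

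Some ethylene genes rose from low levels. The study's list of ethylene synthesis, EIN3/EIL and EREB genes was also chosen on these samples. Of its genes, 6 of 13 were called higher and none lower, against 2.71% of all tested genes called higher. The list median log2 fold change was 1.59. With genes that had no SC count set at their lower bound and 1 gene with too few counts left out, it was 1.37. It was 1.0 without pSC18 replicate 3, with 5 called. ZmEIN3 (Zm00001eb395480, chromosome 9, 139161296 to 139165520) had 17.9, 16.3 and 12.0 FPKM in pSC18, against 0.315, 0.256 and 0 FPKM in SC, a log2 fold change of 6.35 ± 1.40 (SE, adjusted p = 0.0151, edgeR). The rise was seen in all 3 pSC18 libraries, but the adjusted p reached 0.0723 when SC libraries were left out. ZmEREB2 (Zm00001eb429870, chromosome 10, 142075767 to 142077033) had 4.96, 1.85 and 15.4 FPKM in pSC18 and no count in SC. It was at least 61.9-fold higher in pSC18, taking a floor of 3 counts per SC library (adjusted p = 0.00822, edgeR), with a wide spread over the pSC18 libraries.

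ZmEIL1 (Zm00001eb015440) had 0.488, 3.47 and 8.82 FPKM in pSC18 and 0.115, 0.121 and 0.0137 FPKM in SC (adjusted p = 0.00745, edgeR). ZmEREB113 (Zm00001eb348560) had 3.47, 4.37 and 1.89 FPKM in pSC18 and 0, 0.494 and 0.347 FPKM in SC (adjusted p = 0.0104, edgeR). Both are regulators whose level at 18 HAP was still low. ZmACO20 (Zm00001eb193360), an enzyme of the last step of ethylene synthesis, passed only just, with a log2 fold change of 1.02 ± 0.29 (SE, adjusted p = 0.0468, edgeR) that lost its call without pSC18 replicate 2 or 3, or any SC library. Its adjusted p then ran up to 0.183. ZmACS3 (Zm00001eb378300), described as the probable aminotransferase ACS12, had 6.80, 5.16 and 4.61 FPKM in pSC18 and 2.53, 5.15 and 2.90 FPKM in SC. These ranges overlapped, and it was not called. Outside the study's list, Zm00001eb073290 is described as a synthase of the ethylene precursor. It had 1.18, 3.60 and 0.663 FPKM in pSC18 and 0.0246, 0 and 0.0701 FPKM in SC (adjusted p = 0.0289, edgeR). Its call as higher was lost without pSC18 replicate 1 or 2, or any SC library.

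The study's list of cell death regulators and executors was also chosen on these samples, so its direction is not independent evidence. Of its genes, 4 of 16 were called higher and none lower, against 2.71% of all tested genes called higher. ZmNAC087L2 (Zm00001eb330910, chromosome 7, 182734869 to 182736688), a NAC transcription factor, had 16.0, 11.4 and 34.2 FPKM in pSC18, against 0.398, 0 and 0 FPKM in SC, a log2 fold change of 7.24 ± 1.13 (SE, adjusted p = 0.00266, edgeR) that was 6.66 without pSC18 replicate 3. DESeq2 on 12 libraries gave this gene no adjusted p, and on the 6 libraries it gave 0.00104. The other 3 called members, ZmNAC087L4 (Zm00001eb195770), ZmS40L (Zm00001eb247750) and the non-coding gene NC_240200 (Zm00001eb240200), averaged 3.02, 1.72 and 6.97 FPKM in pSC18 and 0.0776, 0.146 and 0.488 FPKM in SC, and all lost their calls without pSC18 replicate 3 and without each SC library, with adjusted p-values of up to 0.111, 0.162 and 0.170 (edgeR). The proteases ZmCEP1 (Zm00001eb039650) and ZmVPEg (Zm00001eb345400) had no SC count. ZmCEP1 had none in pSC18 either, and ZmVPEg had 0, 0 and 6.97 FPKM in pSC18, all from replicate 3. The median log2 fold change of the list was 3.29. Counting only genes above the floor, with those at 0 in SC at their lower bound, it was 2.29 over 12 genes. Without pSC18 replicate 3 the fitted median was 1.38 over 16 genes, and 1 gene was called.

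A large rise that was alike in all libraries was that of Cyclin-D6-1 (Zm00001eb323840, chromosome 7, 165666137 to 165668454). It is described as a D-type cyclin, a family that promotes entry into the cell cycle. It had 49.1, 49.9 and 34.2 FPKM in pSC18, against 0.860, 2.18 and 1.97 FPKM in SC, a log2 fold change of 4.73 ± 0.38 (SE, adjusted p = 6.46e-05, edgeR). Of 98 tested genes listed as cyclins, CDKs and inhibitors, 4 were called higher and 2 lower (6.12%, against 4.30% of all tested genes). Their median log2 fold change was -0.01. The counts were 2 and 2 without pSC18 replicate 3. Of the 2 called lower with all libraries, Zm00001eb178950 is described as cell division control protein 48 homolog D, not as a cyclin, CDK or inhibitor. Cyclin-D4-2 (Zm00001eb038430) fell to a mean of 6.20 FPKM in pSC18, against 12.8 FPKM in SC, a call that was lost without pSC18 replicate 2, where the log2 fold change was -0.93.

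Of the 572 genes called higher, the one with the highest mean level in pSC18 was glutamate decarboxylase 1 (Zm00001eb055490, chromosome 1, 276006628 to 276019136), which makes GABA from glutamate. It had 316, 342 and 245 FPKM in pSC18, against 39.1, 65.3 and 31.9 FPKM in SC, a log2 fold change of 2.73 ± 0.25 (SE, adjusted p = 0.000179, edgeR). Pectinesterase inhibitor 8 (Zm00001eb242990), which restrains the demethylation of pectin, reached 226, 343 and 206 FPKM in pSC18 and 73.7, 55.0 and 45.5 FPKM in SC (adjusted p = 0.00116, edgeR). UDP-glycosyltransferase 79 (Zm00001eb318580), an enzyme that adds sugars to small molecules, had 112, 240 and 111 FPKM in pSC18 and 22.3, 1.17 and 4.87 FPKM in SC (adjusted p = 0.00803, edgeR). In all 3 genes the stages did not overlap.

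Wall, calcium and receptor genes included calls in both directions, read here against the 4.30% called among all tested genes. Of 134 tested expansin, xyloglucan and cellulose genes, 12 were higher and 4 lower (11.9% called), with a median log2 fold change of 0.28. Without pSC18 replicate 3, 10 were higher and 3 lower, and the median was 0.01. The higher ones included 3 cellulose synthase catalytic subunits, such as subunit 1 (Zm00001eb345740) with 19.5, 18.9 and 17.3 FPKM in pSC18 and 8.01, 8.11 and 7.59 FPKM in SC. Endoglucanase 10 (Zm00001eb215310), of a family that cuts cellulose, had 24.6, 24.9 and 20.7 FPKM in pSC18 and 9.31, 10.3 and 8.28 FPKM in SC (log2 fold change 1.33 ± 0.14, SE, adjusted p = 0.000286, edgeR). The 3 called expansins, proteins that loosen walls, were all lower. Among them, both genes described as expansin-B14 (Zm00001eb380890 and Zm00001eb381400) fell to means of 2.41 and 2.65 FPKM in pSC18, against 24.7 and 22.6 FPKM in SC. Reads shared by such copies may be split between them. The first lost its call without SC replicate 2 or pSC18 replicate 1 or 3, and the second without SC replicate 1 or 2 or pSC18 replicate 1 or 2, with adjusted p-values of up to 0.0658 and 0.109 (edgeR).

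Of 70 tested pectin genes, 5 were higher and 2 lower, although the list median was -0.29. The counts were 4 and 1 without pSC18 replicate 3. The pectinesterase gene Zm00001eb177120 had 1.12, 2.53 and 3.11 FPKM in pSC18 and no SC count, and was at least 29.6-fold higher (adjusted p = 0.00141, edgeR). The polygalacturonase Zm00001eb382310, an enzyme that cuts pectin chains, had 7.70, 4.24 and 4.52 FPKM in pSC18, against 39.0, 50.9 and 44.6 FPKM in SC, a log2 fold change of -3.04 ± 0.43 (SE, adjusted p = 0.00174, edgeR).

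Of 121 tested calcium sensors and kinases, 6 were higher and 5 lower (9.09%), with members of 1 family moving in both directions. Leaving out pSC18 replicate 3 gave 4 higher and 2 lower. Calcium-dependent protein kinase 20 (Zm00001eb107190) had 16.8, 24.8 and 21.5 FPKM in pSC18 and 5.52, 3.71 and 2.55 FPKM in SC (log2 fold change 2.42 ± 0.33, SE, adjusted p = 0.00146, edgeR). Kinase 11 (Zm00001eb213240) had 4.34, 3.40 and 4.19 FPKM in pSC18 and 16.5, 13.6 and 14.3 FPKM in SC (log2 fold change -1.89 ± 0.34, SE, adjusted p = 0.00556, edgeR). Kinases of this kind pass calcium signals on by phosphorylation.

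Receptor kinases had 15 of 273 genes higher and 4 lower (6.96%), or 14 and 2 without pSC18 replicate 3. Beside ZmFERL16, the inactive receptor kinase gene Zm00001eb161710 rose, with 19.8, 20.9 and 18.0 FPKM in pSC18 and 7.71, 8.09 and 9.35 FPKM in SC. The list of abscisic acid genes had 10 of 121 higher and 3 lower (10.7%), or 8 and 1 without pSC18 replicate 3, with a median log2 fold change of 0.05. Of its 13 called members, 12 were described as protein phosphatases of type 2C, a large family of which only some members act on abscisic acid receptors. Of them, Zm00001eb402720 had 86.2, 85.7 and 62.6 FPKM in pSC18 and 35.9, 32.0 and 29.4 FPKM in SC.

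**Figure D3:**
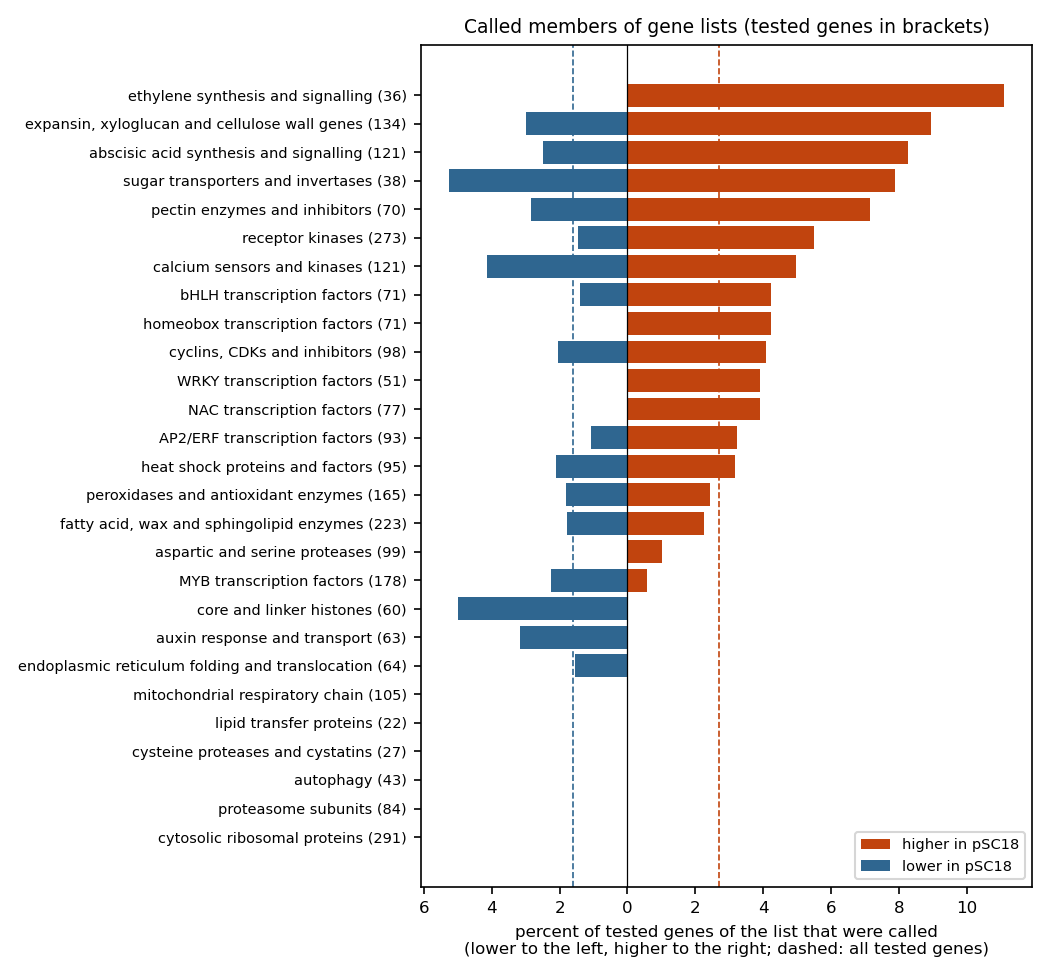
Percent of the tested genes of 27 lists made from gene descriptions that were called higher (orange, to the right) or lower (blue, to the left) in pSC18 than in SC, with the number of tested genes in brackets. The dashed lines mark the shares over all tested genes, 2.71% higher and 1.60% lower. Ethylene genes have the longest bar to the right and 6 lists have no call. The ethylene bar rests on 4 of 36 genes, or 3 without pSC18 replicate 3. Among the 4 are ZmEIN3, ZmEIL1 and ZmACO20, which are also in the study's list chosen on these samples.

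Other groups had no call or 1 call in edgeR. Their counts at an unadjusted p under 0.05 stand beside 5027 of all 21143 tested genes at that level (edgeR). None of 291 cytosolic ribosomal protein genes was called, with 65 at an unadjusted p under 0.05 and 1 call by DESeq2. Their median log2 fold change was 0.21, or 0.11 without pSC18 replicate 3, and none was called without it either. The same held for 84 proteasome subunits (18 at an unadjusted p under 0.05, median 0.08, none by DESeq2), 105 respiratory chain genes (31, median -0.18, none by DESeq2) and 43 autophagy genes (13, median -0.01, 1 by DESeq2). Of 27 cysteine protease and cystatin genes, none was called, with 10 at an unadjusted p under 0.05 and 1 call by DESeq2. Cysteine proteinase 2 (Zm00001eb314220) had 1260, 1220 and 1097 FPKM in pSC18 and 1600, 1655 and 1521 FPKM in SC, a difference with an adjusted p of 0.00601 and a fold below 2 (edgeR). Of 22 lipid transfer protein genes, none was called, with 5 at an unadjusted p under 0.05 and 2 calls by DESeq2. Of 64 genes of folding and entry in the endoplasmic reticulum, 1 was called lower, by edgeR and by DESeq2. With no threshold on the fold, 12 of the 64 were lower (edgeR), against 4.10% of all tested genes. There were 27 at an unadjusted p under 0.05 (edgeR), and the list median log2 fold change was -0.25. Calreticulin (Zm00001eb304290), a chaperone of secreted proteins, had 2318, 2127 and 2021 FPKM in pSC18 and 2755, 3179 and 3115 FPKM in SC.

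The transcription factor ZmMYB98 fell at 18 HAP, and other synergid regulators had lower values that did not all pass the test. ZmMYB98 (Zm00001eb212880, chromosome 5, 4444783 to 4445878) had 475, 459 and 356 FPKM in pSC18, against 1048, 1205 and 1106 FPKM in SC. The stages did not overlap, and the log2 fold change was -1.38 ± 0.34 (SE, adjusted p = 0.0263, edgeR). With any single library left out, the fold kept a log2 value between -1.47 and -1.26, while the adjusted p lay between 0.0552 and 0.0837 (edgeR). These fits take 1 spread per gene from all stages, and ZmMYB98 had 59.7, 55.2 and 179 FPKM in pSC24. DESeq2 gave ZmMYB98 an adjusted p of 0.0136 on 12 libraries and 6.73e-25 on the 6 alone. A second gene described as MYB98 (Zm00001eb060980, chromosome 1, 295423285 to 295426271) fell too, with 142, 125 and 103 FPKM in pSC18 and 378, 434 and 423 FPKM in SC, and its log2 fold change of -1.74 ± 0.18 (SE, adjusted p = 0.000286, edgeR) held with each library left out.

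All 5 of the transcription factors that the study ranks highest in synergids had a negative change, with a median log2 fold change of -0.60, and ZmMYB98 was the only one called. ZmHB44 (Zm00001eb226580), a homeobox gene, had 113, 89.7 and 89.5 FPKM in pSC18 and 374, 514 and 451 FPKM in SC, without overlap, but an adjusted p of 0.0573 in edgeR. DESeq2, edgeR on the 6 libraries alone and edgeR with no filter on low counts called it lower. Its adjusted p was 0.0295 in DESeq2 on 12 libraries and 1.35e-43 in DESeq2 on the 6 alone. In pSC24, which enters the spread of the 12-library fits, it had 5.89, 12.4 and 82.7 FPKM. The homeobox genes ZmHB24 (Zm00001eb208000) and ZmHB42 (Zm00001eb226570) had log2 fold changes of -0.60 and -0.58, with an adjusted p under 0.05 and a fold below 2, and ZmHB81 (Zm00001eb273120) had one of -0.49 with an adjusted p of 0.0514 (edgeR).

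The abundant secreted and wall genes that ZmMYB98 activates in a promoter assay of the study were lower by less than 2-fold. Of 18 such genes, chosen on these samples, none was called by edgeR or DESeq2. With no threshold on the fold, 15 had an unadjusted p under 0.05 and 13 an adjusted p under 0.05 (edgeR). Of all 21143 tested genes, 5027 had an unadjusted p under 0.05 and 8.80% an adjusted p under 0.05 (edgeR). The log2 fold changes of the listed genes were negative in 18 of 18, with a median of -0.45 against 0.05 for all tested genes. Scaled by library totals the median was -0.25 and 17 of 18 were negative, with ZmSC10 (Zm00001eb277710) at 0.05. ZmES4 (Zm00001eb393820), which in maize triggers the bursting of the pollen tube, had 8494, 10285 and 8433 FPKM in pSC18 and 11035, 12022 and 13051 FPKM in SC, a log2 fold change of -0.41 ± 0.12 (SE, adjusted p = 0.0499, edgeR). ZmSC21 (Zm00001eb043890) had 5465, 6315 and 6482 FPKM in pSC18 and 9464, 10495 and 11346 FPKM in SC (log2 fold change -0.78 ± 0.13, SE, adjusted p = 0.00402, edgeR).

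Beside the regulators, the strongest falls included genes without a description. Zm00001eb148590 (chromosome 3, 186681222 to 186682344) had 28.7, 23.3 and 14.8 FPKM in pSC18, against 222, 277 and 276 FPKM in SC, a log2 fold change of -3.54 ± 0.35 (SE, adjusted p = 0.000239, edgeR). Zm00001eb344100 (chromosome 8, 73295057 to 73296277) had 92.8, 145 and 80.1 FPKM in pSC18, against 716, 1000 and 752 FPKM in SC, and fell by 2.96 on the log2 scale. Both calls held with each library left out and with a test against a fold of 2. DXP reductoisomerase (Zm00001eb334380, chromosome 8, 8511105 to 8513522), which commits carbon to isoprenoids in plastids, had 49.5, 58.9 and 45.1 FPKM in pSC18 and 362, 423 and 534 FPKM in SC (log2 fold change -3.10 ± 0.39, SE, adjusted p = 0.00101, edgeR).

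The sucrose transporter SUT5 (Zm00001eb244930) had 73.4, 55.2 and 48.7 FPKM in pSC18 and 150, 193 and 180 FPKM in SC (log2 fold change -1.56 ± 0.16, SE, adjusted p = 0.000245, edgeR). Peroxidase 1 (Zm00001eb043100), of a family that oxidizes wall and phenolic substrates, had 3.88, 4.30 and 3.09 FPKM in pSC18 and 13.3, 21.5 and 21.1 FPKM in SC. In both genes, every pSC18 library lay below every SC library.

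**Figure D4:**
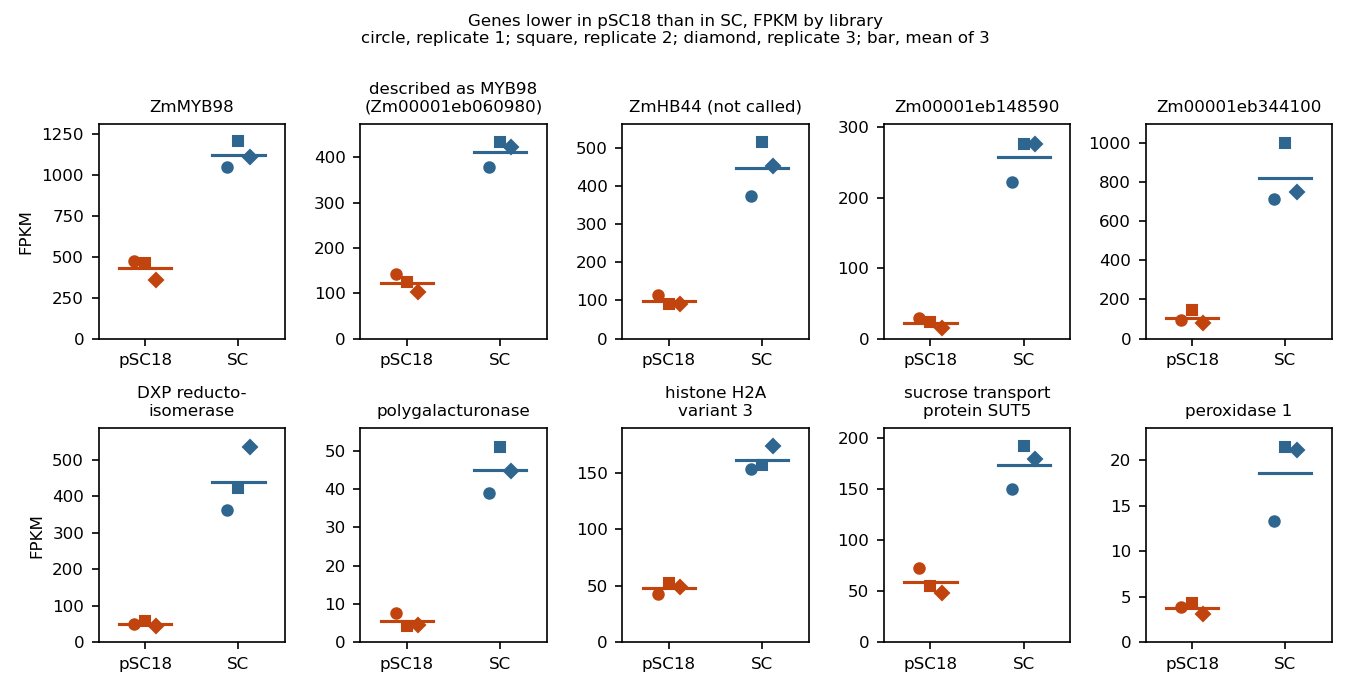
FPKM of 10 genes in pSC18 and SC, each on its own linear axis from 0, with a marker per library and a bar at the mean of the 3. In each panel all pSC18 libraries lie below all SC libraries; ZmHB44 did not pass the edgeR test, and the other 9 genes did.

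The values of histone genes depended on pSC18 replicate 3. With all libraries, 3 of 60 tested histone genes were called lower and none higher, and the median log2 fold change was -0.02. Without pSC18 replicate 3, 5 were called lower, the median was -0.88 and 53 of 60 were negative, while the median of all tested genes was -0.01. The summed level of the 60 genes was 759, 965 and 2062 FPKM in the 3 pSC18 libraries, against 1723, 1335 and 1878 FPKM in SC. The list was drawn from descriptions and domains, and 1 of its members is described as a VAMP-like protein and another as a pentatricopeptide repeat protein. The histone H2A variant gene Zm00001eb056890, which was as low in replicate 3 as in the others, had 43.0, 52.4 and 48.8 FPKM in pSC18 and 153, 157 and 174 FPKM in SC (log2 fold change -1.75 ± 0.15, SE, adjusted p = 7.50e-05, edgeR).

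Genes of DNA replication stood high in the same library. A list of 46 tested genes, chosen after their values were seen and therefore not tested, summed to 223, 254 and 686 FPKM in pSC18 replicates 1, 2 and 3 and to 273, 256 and 257 FPKM in SC. The proliferating cell nuclear antigen gene Zm00001eb192050, the sliding clamp of DNA polymerases, had 7.55, 8.73 and 79.8 FPKM in pSC18 and 9.56, 7.78 and 5.76 FPKM in SC. An MCM5 gene of the replicative helicase (Zm00001eb192280) had no count in any of these libraries except pSC18 replicate 3, at 13.4 FPKM. Replication protein A subunit Zm00001eb400180 was called higher on 0.302, 0.156 and 41.8 FPKM in pSC18, and without pSC18 replicate 3 its adjusted p was 0.607 (edgeR). It lost its call without any SC library too.

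Markers of other cells were examined beside these values. Families of the egg cell and zygote, 69 genes of which 27 had no count in these 6 libraries, summed to 318, 260 and 774 FPKM in pSC18 and 691, 439 and 427 FPKM in SC. Of 29 tested members, 4 were 10-fold or more above both other replicates in pSC18 replicate 3. Among them, Zm00001eb305500, Zm00001eb274310 and Zm00001eb306050, with BTB/POZ and MATH domains, reached 58.0, 45.7 and 20.5 FPKM there. Zm00001eb274300 of that family had 30.9, 36.7 and 164 FPKM in pSC18 and 77.0, 87.7 and 79.8 FPKM in SC. Zm00001eb409490 of that family was not high in replicate 3, with 28.8, 19.3 and 23.7 FPKM in pSC18. BBM2 (Zm00001eb144510), an AP2 factor linked to the start of embryo development, had 0, 0 and 19.1 FPKM in pSC18 and no count in SC. An EC1 gene of the egg cell (Zm00001eb396810), whose product is known from Arabidopsis to act on sperm, had 73.8, 49.3 and 149 FPKM in pSC18 and 360, 161 and 143 FPKM in SC, so that both stages held it and overlapped. It was not called, but without pSC18 replicate 3 it was lower, with a log2 fold change of -1.84 (adjusted p = 0.0333, edgeR). Families of the endosperm and central cell, 39 genes of which 32 had no count, summed to 962, 1063 and 1246 FPKM in pSC18 and 1193, 1555 and 2076 FPKM in SC. Most of each sum came from a locus without an annotated gene, described as MATERNALLY EXPRESSED GENE 1. That locus had 870, 966 and 1136 FPKM in pSC18 and 1117, 1479 and 2013 FPKM in SC. MATERNALLY EXPRESSED GENE 5 (Zm00001eb202590) went the other way, with 89.6, 94.6 and 108 FPKM in pSC18 and 73.4, 74.7 and 61.1 FPKM in SC. Pollen families summed to 233 to 254 FPKM in pSC18 and 210 to 251 FPKM in SC, and photosynthetic families to 138 to 167 FPKM in pSC18 and 146 to 182 FPKM in SC. These sums rest largely on few members. In pSC18, Profilin-5 had 67.0 to 75.3 and Profilin-4 63.2 to 96.0 FPKM. The RuBisCO large subunit-binding proteins beta and alpha had 50.7 to 71.7 and 40.9 to 55.0 FPKM in pSC18. The part of other cells in the results was not tested.

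**Figure D5:**
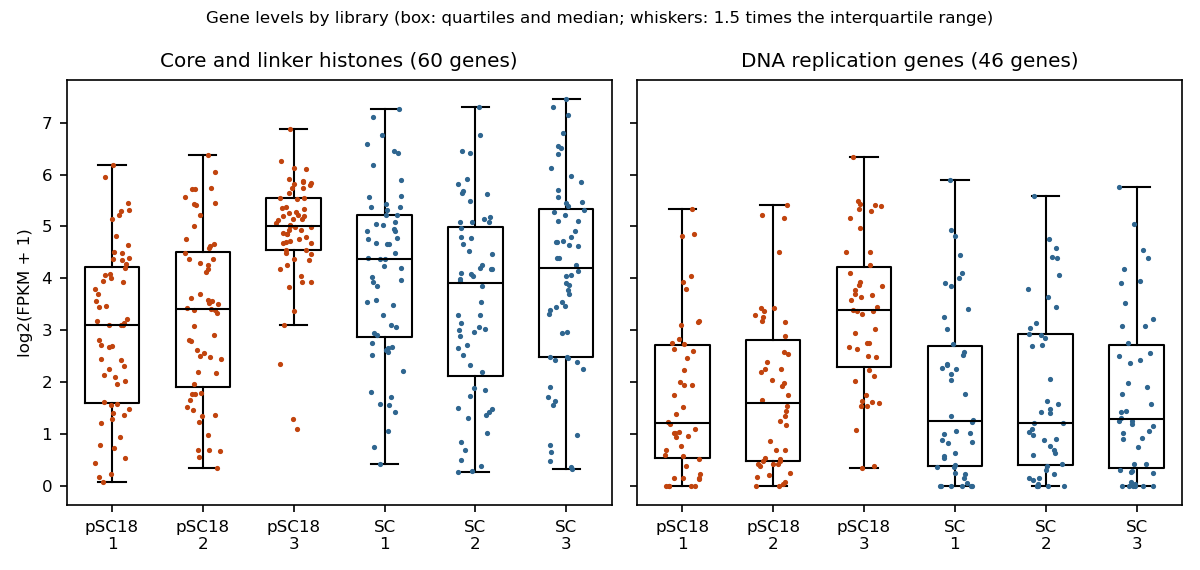
log2(FPKM + 1) of the 60 genes of the histone list and 46 DNA replication genes in each of the 6 libraries, with a point per gene and a box at the quartiles and median. pSC18 replicate 3 stands above pSC18 replicates 1 and 2 in both lists; the replication list was chosen after these values were seen.

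Most calls did not need pSC18 replicate 3. Without it, 498 genes were called higher and 265 lower, and these included 406 of the 572 genes (71.0%) and 212 of the 338 (62.7%). Leaving out pSC18 replicate 1 or 2 kept fewer of the 572 genes, 383 and 380, and 220 and 217 of the 338. With an SC library left out, 302 to 309 of the 572 and 198 to 225 of the 338 were kept, and 341 to 356 genes were called higher. Without each of the 6 libraries in turn, 215 genes stayed called higher (37.6%) and 147 lower (43.5%). In a test against a fold of 2 in place of no change, 35 genes were higher and 9 lower, among them ZmRALF12, ZmFERL16, ZmLLG3, ZmNAC087L2 and Cyclin-D6-1.

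The genes called at 18 HAP were followed between 12 and 24 HAP, in 6 libraries that enter the same fit but not the fold of pSC18 over SC. Between pSC24 and pSC12, 14.2% of all tested genes were called in either direction, and 22.7% with no threshold on the fold. Of the 572 genes called higher, 218 (38.1%) were also higher in pSC24 than in pSC12, against 8.68% of all tested genes, and 10 were lower. Of the 338 called lower, 111 (32.8%) were lower in pSC24 than in pSC12, against 5.55% of all tested genes, and 28 were higher. The median log2 fold change of pSC24 over pSC12 was 0.81 for the first set, -0.63 for the second and 0.02 for all tested genes. Whether these shares differ was not tested.

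Some genes did not go on in 1 direction. The inactive receptor kinase gene Zm00001eb161710 had mean levels of 8.38, 20.1, 19.5 and 5.97 FPKM in SC, pSC12, pSC18 and pSC24. Zm00001eb160210, a gene with a helix-loop-helix domain, had 0.202, 5.41, 5.14 and 0.507 FPKM in the same order. Both had their higher means at 12 and 18 HAP. The sugar transporter SWEET2a (Zm00001eb342040), which moves sugars across membranes, had 7.31, 5.20, 3.27 and 19.2 FPKM in SC, pSC12, pSC18 and pSC24, with its lowest mean at 18 HAP. Its call in pSC18 against SC was lost without SC replicate 2, where the adjusted p was 0.0511 (edgeR).

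Genes called in the 2 directions differed in their properties, given here as a description. Genes called higher had a median length of 2388 bases, and those called lower 1686 bases, against 1934 bases for all tested genes. Genes called higher had a median level of 7.85 FPKM in pSC18 and 2.39 FPKM in SC, and 170 of 572 (29.7%) had a mean under 1 FPKM in SC. Genes called lower had a median of 6.43 FPKM in pSC18 and 19.3 FPKM in SC. Non-coding genes made up 3.15% of the higher and 3.85% of the lower genes, against 2.37% of all tested, and loci without an annotated gene 1.75% and 4.73%, against 6.35%. The number of genes with a mean over 1 FPKM was 16296 in pSC18 and 15780 in SC, and 15689 in pSC18 without replicate 3.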

How the data were processed

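RNA of manually isolated maize synergid cells was sequenced in 12 libraries, 3 per stage, grouped by the sample titles. For mapping, the authors used HISAT2 2.0.5 on the genome AGPv5, after trimming by cutadapt 1.15, and featureCounts 1.5.0-p3 gave a number per gene, with versions from the submitters' processing notes. The authors deposited whole-number counts and FPKM. The deposited FPKM follow the counts divided by gene length with 1 factor per library. Strand setting and treatment of multiply mapped reads are not given in the sources used here, so near-identical and overlapping genes are uncertain. One row of the table is not analysed here.

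Counts were compared with edgeR 4.0.16 (limma 3.58.1, R 4.3.3), quasi-likelihood test, TMM scaling and edgeR's filter on low counts, in 1 fit on all 12 libraries with stage as the only term. P-values were adjusted by Benjamini-Hochberg within the comparison of 21143 genes. A call needed an adjusted p under 0.05 together with a fold over 2. SE is the log2 fold change divided by the root of F. Where all 3 SC libraries had 0 counts, a lower bound of the fold was taken against 3 counts per library. Levels and correlations use FPKM. Python 3.11.15, pandas 2.3.3, numpy 2.4.6 and matplotlib 3.10.9 were used. The test was checked on simulated counts.

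The comparison was repeated with DESeq2 1.42.0 (12 libraries, or the 6 alone), with edgeR on these 6, other scalings, filters and thresholds, a replicate block and each library left out. The genes named are the largest and most abundant changes, members of the study's lists, and up to 4 called members of each list drawn from gene descriptions, whose patterns were adjusted after the descriptions were seen. The comparison, members and lists were chosen with earlier results of these data known. Named outside this rule, after their values were seen, were BBM2, the genes with BTB/POZ and MATH domains, EXO70B1, Synaptotagmin-1 and PRA1 family protein B2. So were Zm00001eb192050, Zm00001eb192280 and the DNA replication list. The 6 libraries had totals of 15435736 to 20834163 counts, but replicates differed by more than counting error. SE values cover the spread between replicates only, taken over all 12 libraries.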

Additional observations from a re-analysis of the deposited data

How the results depend on the processing

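The number of genes higher in pSC18 than in SC was 572, and 987 with library totals, 35 in the test against a fold of 2, 254 at an adjusted p under 0.01 and 995 with no threshold on the fold. The number lower was 338, and 542 with DESeq2 on 12 libraries, 639 with DESeq2 on 6, 220 with library totals, 9 against a fold of 2, 153 at an adjusted p under 0.01 and 866 with no threshold on the fold. With 1 library left out the counts ran from 341 to 498 higher and from 214 to 277 lower. Scaled by library totals, ZmSC10 (Zm00001eb277710) had a log2 fold change of 0.05, against -0.15. The median log2 fold change of all tested genes was 0.25 with library totals, against 0.05. The replicate block gave 498 higher and 308 lower. The labels give the stages the same replicate numbers but no pairing, and the deviations of same-numbered libraries had correlations of 0.00, -0.02 and -0.05, so the numbers were not taken as pairs. The causes of these differences were not tested. The 6 libraries have 15435736 counts or more each, and genes with few counts in a stage are limited by the 3 replicates and by amplification from few cells.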

Other observations

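A test against a fold of 2 called 44 genes, and the genes of membrane traffic described here were picked from them after their values were seen. EXO70B1 (Zm00001eb351930), a subunit of the exocyst that tethers secretory vesicles, had 8.78, 8.57 and 7.20 FPKM in pSC18 and 1.71, 1.56 and 0.821 FPKM in SC. Synaptotagmin-1 (Zm00001eb332000), a protein of contacts between the endoplasmic reticulum and the plasma membrane in Arabidopsis, had 11.2, 10.6 and 9.77 FPKM in pSC18 and 2.71, 1.60 and 1.53 FPKM in SC. PRA1 family protein B2 (Zm00001eb290310) had 10.4, 11.7 and 13.0 FPKM in pSC18 and 2.15, 2.64 and 3.29 FPKM in SC. In all 3 the stages did not overlap, with log2 fold changes of 2.59, 2.44 and 2.12, which the choice by that test favours. Among all tested genes, 14.9% lay above SC without overlap.

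Of the genes listed by transcription factor family, 3 of 77 NAC, 2 of 51 WRKY and 3 of 71 homeobox genes were called higher and none lower by edgeR, shares near the 2.71% of all tested genes. Without pSC18 replicate 3 the counts were 2, 0 and 2. DESeq2 on 12 libraries called 3 NAC, 4 WRKY and 5 homeobox genes higher. It called 4 homeobox genes lower. Over all 21143 tested genes it called 850 higher and 542 lower. Of 178 MYB genes, 1 was called higher and 4 lower, against 3 and 3 without that library. The MYB gene called higher (Zm00001eb089420) is described as SWI3D, a subunit of a chromatin remodelling complex. Of 63 auxin genes, 2 were lower and none higher, among them Auxin-responsive protein IAA4 (Zm00001eb332360), a repressor of auxin response, with means of 11.9 FPKM in pSC18 and 29.1 FPKM in SC. Heat shock genes had 3 of 95 higher and 2 lower (5.26%, against 4.30% of all tested genes). Without pSC18 replicate 3 they had 2 higher and 3 lower, with a median log2 fold change of -0.04 in place of 0.16.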
